A study of Mus musculus with 24 samples.

Results

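Activated microglia switch on a recognisable group of genes, and 10 of them were followed here in mouse lumbar spinal cord after paclitaxel: Trem2, Clec7a, Axl, Itgax, Apoe, Lpl, Cd68, Cst7, Spp1 and Aif1. They were taken by gene symbol from a table of 55418 genes, and all 10 were present and passed the filter on low counts. The question was whether reactive microgliosis can be seen in the cord of mice given the drug. Paclitaxel is a taxane that stabilises microtubules and is used against tumours, and painful neuropathy is a known side effect.

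RNA came from spinal cord segments L4 to L6 of 24 C57BL/6J mice, 3 in each of 8 groups. The groups crossed genotype (Chrna7-cKO, a knockout of Chrna7 restricted to myeloid cells, or wild-type), treatment (paclitaxel or vehicle) and sex (male or female). Mice were 8 to 10 weeks old at the start, paclitaxel was given at 1 mg/kg in 4 injections on alternate days, and tissue was taken on day 7 after the first one. The vehicle was Kolliphor, ethanol and water. Chrna7 codes for alpha7, a subunit of nicotinic acetylcholine receptors, and the sources used here do not give the Cre line behind the knockout. Each library is 1 mouse, so the spread between replicates holds the animal and the library together.

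Libraries held between 88812295 and 112158154 counts. The library labelled WT female paclitaxel replicate 3 was set apart from the comparisons, since the summed level of 7 sensory ganglion neuron markers reached 2109.9 CPM there, against 3.50 to 5.38 CPM in the other 23 cords. CPM is the count of a gene scaled to the total of its library. The wild-type paclitaxel group therefore has 5 cords. Homeostatic microglia markers summed to 315 to 417 CPM in the 23 cords and to 119 CPM in the library set apart, and none of the 13 was at 0 in any library. Chrna7 itself was not called in knockout against wild-type cords (log2 fold change -0.11, SE 0.06, edgeR adjusted p = 0.9997), and whole-cord RNA also contains the Chrna7 transcripts of neurons, so it does not check the labels. Lyz2, a lysozyme gene of myeloid cells, was lower in knockout cords (edgeR adjusted p = 0.00752), at -1.06 on the log2 scale (SE 0.13).

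Microglia survey the resting cord with a homeostatic set of receptors. In models of Alzheimer's disease and other damage they lower that set and raise a program in which the lipid receptor TREM2, signalling through its adaptor TYROBP (DAP12), leads to phagocytosis, lipid uptake and lysosomal activity. After peripheral nerve injury microglia in the dorsal horn multiply and enlarge, and the protein of Aif1, IBA1, is the usual stain for this. The transcription factor PU.1 shapes the identity of microglia and binds DNA around the core GAGGAA.

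The promoter windows of 5 members are shown to give the sequence beside the results: those of Trem2, Clec7a, Cst7 and Itgax, whose levels varied together between cords, and that of Spp1, which holds the longer PU.1 form. No relation between these letters and the levels was tested. Each window is the 250 bases before a start site in RefSeq (GRCm38.p6), written 5′ to 3′ on the strand of the gene, at chr17:48346151-48346400 (plus strand), chr6:129472780-129473029 (minus strand), chr5:104434861-104435110 (plus strand), chr2:150570165-150570414 (plus strand) and chr7:128129300-128129549 (plus strand). Capitals mark GAGGAA or its reverse complement TTCCTC, and in Spp1 the longer form GAGGAAGT.

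Trem2: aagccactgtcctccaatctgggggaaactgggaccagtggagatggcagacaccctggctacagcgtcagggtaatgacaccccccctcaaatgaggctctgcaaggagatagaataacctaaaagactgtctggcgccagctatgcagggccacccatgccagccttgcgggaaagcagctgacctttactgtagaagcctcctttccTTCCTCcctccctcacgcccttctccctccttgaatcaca

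Clec7a: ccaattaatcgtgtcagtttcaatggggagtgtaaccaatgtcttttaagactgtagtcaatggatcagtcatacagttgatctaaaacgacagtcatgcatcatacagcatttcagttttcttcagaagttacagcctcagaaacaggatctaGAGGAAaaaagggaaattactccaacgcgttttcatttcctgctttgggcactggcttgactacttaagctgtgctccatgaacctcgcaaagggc

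Spp1: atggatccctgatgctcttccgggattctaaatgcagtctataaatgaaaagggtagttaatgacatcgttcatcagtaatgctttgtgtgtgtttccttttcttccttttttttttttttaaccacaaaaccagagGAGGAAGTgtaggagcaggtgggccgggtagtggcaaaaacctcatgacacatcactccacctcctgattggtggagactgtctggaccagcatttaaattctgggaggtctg

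Cst7: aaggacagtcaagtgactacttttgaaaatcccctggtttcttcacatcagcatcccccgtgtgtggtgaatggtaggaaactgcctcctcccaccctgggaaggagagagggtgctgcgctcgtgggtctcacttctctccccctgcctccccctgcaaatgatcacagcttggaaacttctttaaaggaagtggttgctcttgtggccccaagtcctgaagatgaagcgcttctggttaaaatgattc

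Itgax: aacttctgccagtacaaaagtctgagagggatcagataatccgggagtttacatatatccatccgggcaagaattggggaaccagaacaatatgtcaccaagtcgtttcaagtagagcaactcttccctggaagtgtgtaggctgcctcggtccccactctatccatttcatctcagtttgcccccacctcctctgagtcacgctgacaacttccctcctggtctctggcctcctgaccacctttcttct

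Entries were found for 9 of the 10 members, with 13 start sites between them. There was no entry for Lpl. On either strand, GAGGAA occurred before at least 1 start site of 7 of the 9 genes (Apoe, Clec7a, Spp1, Cd68, Axl, Trem2 and Aif1) and in 9 of the 13 windows, while 23.4% of 32536 mouse windows of this length hold it. That percentage counts single windows, so it is not the rate for a gene with several start sites. The 2 Clec7a windows overlap and hold the same GAGGAA, which is counted in both. Before the start sites shown, it begins 40 bases upstream in Trem2, 96 in Clec7a and 113 in Spp1, where it is part of GAGGAAGT. That longer form, which contains the shorter one, is found in 2.45% of all windows. Neither Cst7 nor Itgax had GAGGAA in the window shown. CACGTG, the E-box read by TFEB and MITF, occurred in none of the 13 windows and in 6.04% of all windows. These matches are letters in a window and do not show binding.

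Compared per length, as CPM per kilobase of exon, the levels of the 10 genes spanned a wide range. Apoe was far above the others with a mean of 489 ± 78.5 CPM per kilobase over the 23 cords (SD), and Spp1 followed with 103 ± 6.14. Axl had 14.9 ± 0.933, Cd68 4.62 ± 0.595, Aif1 3.89 ± 0.654 and Trem2 2.96 ± 0.339 CPM per kilobase. Clec7a had 1.21 ± 0.329, Lpl 0.894 ± 0.124, Cst7 0.438 ± 0.241 and Itgax 0.161 ± 0.0954 CPM per kilobase. In this order Cd68 and Aif1 overlapped in their ranges over cords, as did Aif1 and Trem2, Clec7a and Lpl, Lpl and Cst7, and Cst7 and Itgax. Apoe is also strongly transcribed by astrocytes and Spp1 by motor neurons, so their levels in a whole cord need not come from microglia. The cell source of the members was not measured.

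Itgax, Cst7 and Clec7a, which had the fewest counts, were also the most variable members. The coefficient of variation of the level in CPM over the 23 cords was 59.2% for Itgax, 55.1% for Cst7 and 27.2% for Clec7a, against 5.94% for Spp1 and 6.26% for Axl. Itgax rested on 30 to 185 counts per cord and Cst7 on 15 to 99, so their folds are the least precise. Spp1 shares 309 of its 1648 exon bases with the neighbouring gene model Gm42793, and reads in that stretch were not assigned. The other 9 members share no exon base with another gene.

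**Figure D1:**
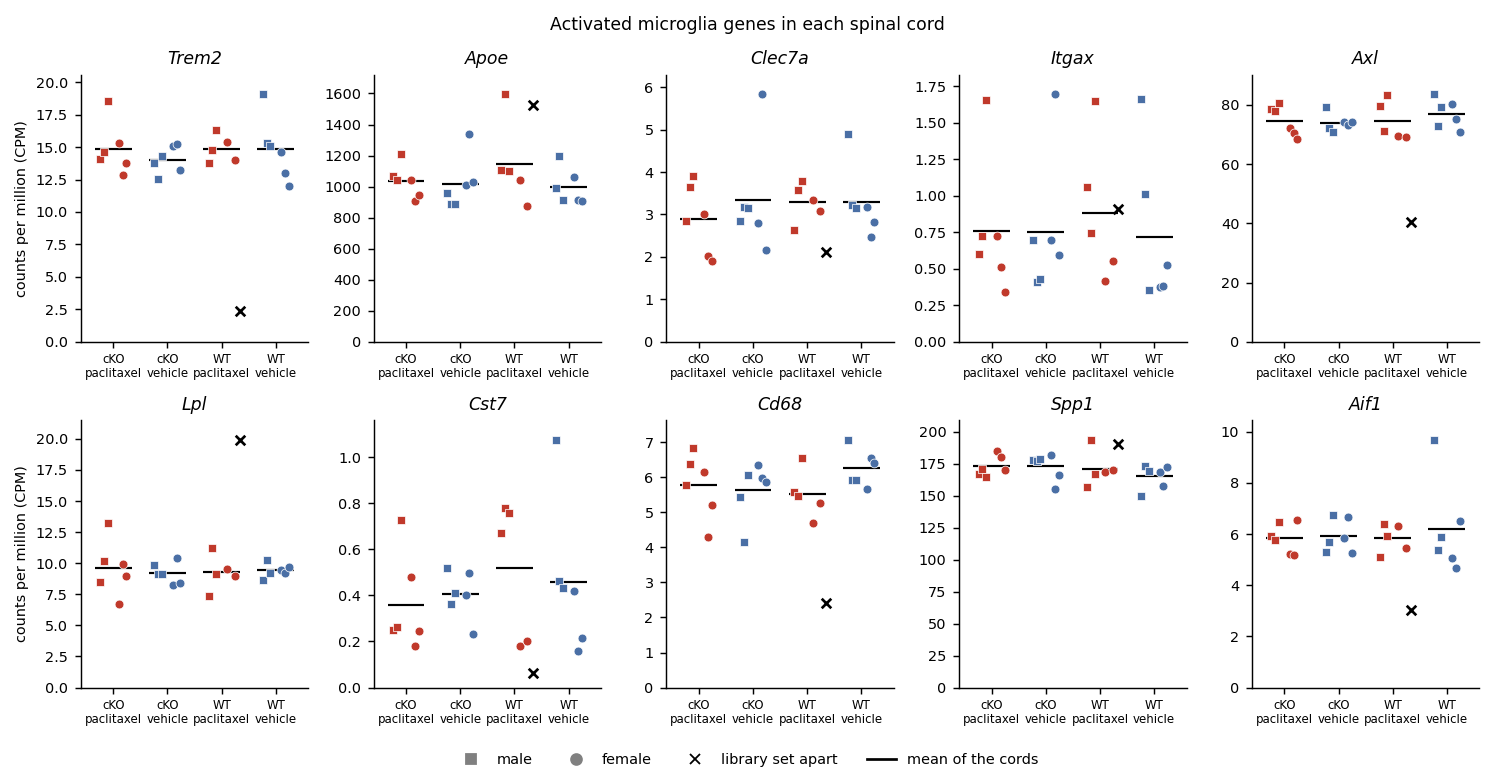
Level of each gene in CPM (y axes, linear, starting at 0) in every library, by genotype and treatment (x axis: Chrna7-cKO paclitaxel, Chrna7-cKO vehicle, WT paclitaxel, WT vehicle); squares are males, circles females, the cross is the library set apart and lines are means of the cords. Paclitaxel and vehicle cords overlap in every gene, and the highest Cst7 value, 1.07 CPM, is a wild-type male given vehicle.

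After paclitaxel none of the 10 genes was called, in all animals or within either genotype. Over all animals 5 had a positive and 5 a negative log2 fold change, with a median of -0.01, beside a median of 0.01 over all 25372 genes tested. A gene was called when its edgeR adjusted p, Benjamini-Hochberg over all tested genes, lay under 0.05. That threshold called 0.0197% of all genes for paclitaxel over all animals, 0.0236% within knockouts and 0% within wild-types. At an unadjusted p under 0.05, 0 of the 10 members passed over all animals, where 10.2% of all genes did. The count of called members also stayed at 0 with DESeq2 and with limma voom. Leaving out any 1 of the 23 cords gave 0 as well. In whole-cord RNA, fewer or more cells of a type and less or more RNA per cell cannot be told apart.

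The receptors showed levels close to one another in the 2 treatments. Trem2, the receptor for lipids and lipoproteins named above, had a lowest, median and highest value of 12.9, 14.6 and 18.5 CPM in 11 paclitaxel cords, and of 12.04, 14.5 and 19.1 CPM in 12 vehicle cords. The highest paclitaxel cord lay below the highest vehicle cord, and the groups overlapped over most of their range. The fold was 1.03 (95% interval 0.954 to 1.11), edgeR adjusted p = 0.844.

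Clec7a encodes dectin-1, a receptor for fungal beta-glucans that rises in microglia around plaques in mouse models of Alzheimer's disease. It ranged from 1.91 to 3.91 CPM in paclitaxel cords (median 3.08), against 2.17 to 5.83 CPM in vehicle cords (median 3.15). Both of its highest values, 5.83 and 4.90 CPM, were vehicle cords. The fold was 0.925 (0.755 to 1.13), edgeR adjusted p = 0.839.

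Axl, a receptor tyrosine kinase that takes up dying cells through GAS6, ranged from 68.6 to 83.3 CPM in paclitaxel cords (median 72.2), against 70.9 to 83.6 CPM in vehicle cords (median 74.1). It was one of the most even members, and the fold of 0.978 had a narrow interval of 0.937 to 1.02 (edgeR adjusted p = 0.771). Itgax, the integrin chain CD11c, ranged from 0.337 to 1.65 CPM in paclitaxel cords (median 0.725), against 0.357 to 1.69 CPM in vehicle cords (median 0.560). Values above 1 CPM occurred in both treatments, in 3 paclitaxel and 3 vehicle cords, and the fold of 1.07 had a wide interval of 0.722 to 1.59 (edgeR adjusted p = 0.939).

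Of the genes of lipid handling, Apoe, the main lipoprotein of the nervous system and a ligand of TREM2, ranged from 878 to 1595 CPM in paclitaxel cords (median 1044), against 885 to 1341 CPM in vehicle cords (median 976). The single value of 1595 CPM belonged to WT male paclitaxel replicate 2, and the other 10 paclitaxel cords lay inside the vehicle range or just below it. The fold was 1.06 (0.948 to 1.19), edgeR adjusted p = 0.757. Lpl, the lipase that frees fatty acids from lipoproteins, ranged from 6.68 to 13.3 CPM in paclitaxel cords (median 9.17), against 8.21 to 10.4 CPM in vehicle cords (median 9.23). The paclitaxel cords were spread on both sides of the vehicle cords, and the fold was 1.01 (0.900 to 1.13), edgeR adjusted p = 0.979.

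The lysosomal genes had negative log2 fold changes that did not pass the test. Cd68, a lysosomal membrane protein of phagocytes, ranged from 4.28 to 6.84 CPM in paclitaxel cords (median 5.59), against 4.15 to 7.06 CPM in vehicle cords (median 5.96). The vehicle cords hold both the lowest and the highest value, and the fold was 0.938 (0.853 to 1.03), edgeR adjusted p = 0.667. Cst7, which encodes cystatin F, an inhibitor of lysosomal cathepsins, ranged from 0.179 to 0.780 CPM in paclitaxel cords (median 0.263), against 0.160 to 1.07 CPM in vehicle cords (median 0.414). The means were nearly equal, at 0.431 ± 0.255 and 0.432 ± 0.232 CPM (SD, n = 11 paclitaxel and 12 vehicle), and the fold was 0.888 (0.641 to 1.23), edgeR adjusted p = 0.850. The fold weighs the 8 groups equally on a log scale, while these means weigh every cord equally.

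Spp1, the secreted protein osteopontin, was the steadiest member, at 157 to 193 CPM in paclitaxel cords (median 169.9), against 149 to 182 CPM in vehicle cords (median 171). Its fold was 1.02 (0.967 to 1.07), edgeR adjusted p = 0.876. Aif1, the source of IBA1, ranged from 5.12 to 6.53 CPM in paclitaxel cords (median 5.93), against 4.66 to 9.67 CPM in vehicle cords (median 5.75). All 11 paclitaxel cords lay inside the vehicle range, and the fold was 0.970 (0.857 to 1.10), edgeR adjusted p = 0.906. The upper ends of the 10 intervals, which are not adjusted for the number of genes, lay between 1.02-fold (Axl) and 1.59-fold (Itgax).

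**Figure D2:**
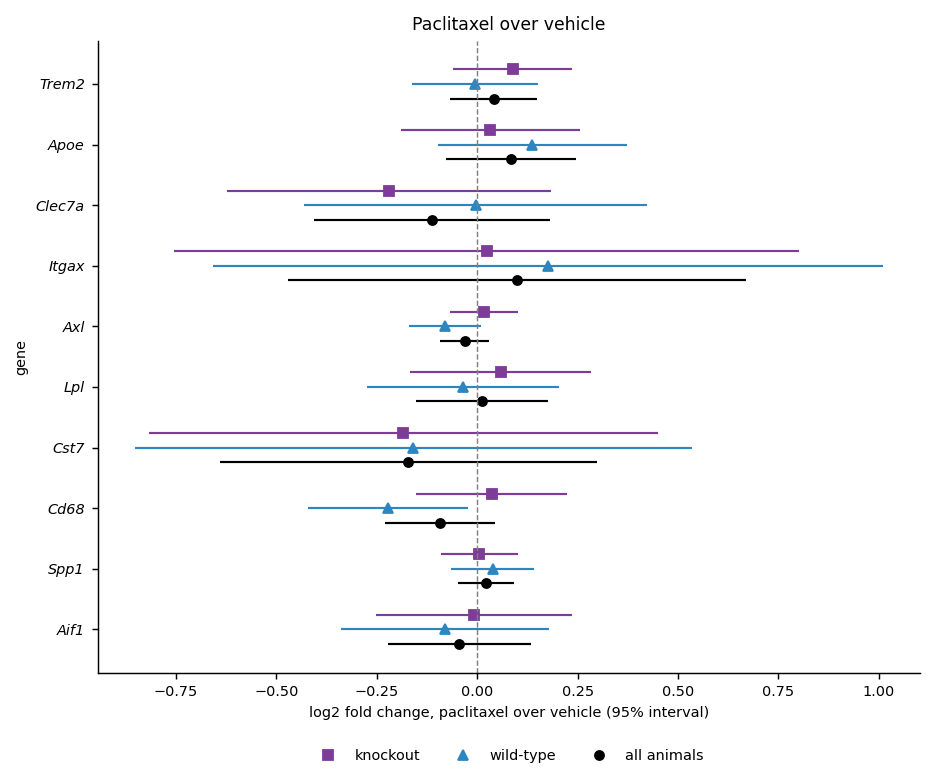
Log2 fold change of paclitaxel over vehicle for each gene (x axis) with 95% intervals from the edgeR fit, within knockouts (squares), within wild-types (triangles) and over all animals (circles). The intervals over all animals include 0 for the 10 genes, and those of Cst7 and Itgax are the widest.

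Within each genotype the changes were small as well. In knockouts 7 of the 10 genes had a positive log2 fold change and the median was 0.02, and in wild-types 3 did and the median was -0.02. In wild-types Cd68 had 4.68, 5.28, 5.47, 5.59 and 6.56 CPM in the 5 paclitaxel cords, against 5.66, 5.92, 5.93, 6.42, 6.55 and 7.06 CPM in the 6 vehicle cords. Most of the paclitaxel cords lay below the vehicle cords, and 1 lay among the highest. The log2 fold change was -0.22 (SE 0.10, unadjusted p = 0.0304, edgeR adjusted p = 0.593), the only member with an unadjusted p under 0.05 in wild-types, where 7.97% of all genes had one. In knockouts Cd68 had a log2 fold change of 0.04 (SE 0.09), and no member reached an unadjusted p under 0.05 there, where 11.3% of all genes did.

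The difference between the 2 responses was tested as the interaction of genotype and treatment, the response of knockouts minus that of wild-types. No member was called, and 0% of all genes were, while 8.41% had an unadjusted p under 0.05. Cd68 had the smallest p of the members, with a log2 interaction of 0.26 (SE 0.13, unadjusted p = 0.0639, edgeR adjusted p = 0.603). No member had paclitaxel and vehicle values that did not overlap, within knockouts or within wild-types, where 0.536% and 0.523% of 15872 genes with a mean of at least 1 CPM had them. Cst7 and Itgax lay below that mean and were not among the 15872. Over all animals the share was 0%. For knockout against wild-type cords it was 0.0063%, again with no member.

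Genotype gave no call among the 10 genes. Over all animals none passed in knockout against wild-type cords, where 0.0118% of all genes were called, and the members' median log2 fold change was -0.03, with 3 positive and 7 negative. At an unadjusted p under 0.05, 0 members passed, as did 3.36% of all genes. Within paclitaxel cords 0.00394% and within vehicle cords 0.00788% of all genes were called, again without a member. No member reached an unadjusted p under 0.05 there, as did 6.18% of all genes within paclitaxel cords and 5.2% within vehicle cords. Aif1 averaged 5.88 ± 0.590 CPM in knockout cords (SD, n = 12) and 6.04 ± 1.35 CPM in wild-type cords (n = 11). Trem2 averaged 14.5 ± 1.57 CPM in knockout cords and 14.8 ± 1.84 CPM in wild-type cords. For Apoe the means were 1028 ± 135 CPM in knockout cords and 1064 ± 203 CPM in wild-type cords. The 95% intervals of the fold for these 3 genes were 0.866 to 1.11, 0.904 to 1.05 and 0.871 to 1.09.

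Sex gave the only call among the members. Cst7 was higher in males, with 0.252, 0.491 and 1.07 CPM as the lowest, median and highest of 12 males, against 0.160, 0.234 and 0.498 CPM in 11 females. The ranges overlapped, and 6 of the 12 males lay above the highest female. The mean was 0.559 ± 0.246 CPM in males and 0.292 ± 0.130 CPM in females, a fold of 1.96 (95% interval 1.41 to 2.71) with an edgeR adjusted p of 0.0350. In this comparison 0.918% of all genes were called, and 0.465% were called as higher in males. The call held with DESeq2 (adjusted p = 0.00445), with DESeq2 size factors (edgeR adjusted p = 0.0348) and without the filter on low counts (edgeR adjusted p = 5.84e-05). It did not hold with all 24 libraries (edgeR adjusted p = 0.208) or with limma voom (adjusted p = 0.0635), and it was absent when any of 13 of the 23 cords was left out, with adjusted p values of 0.0133 to 0.150 over the 23 fits. Those 13 were Chrna7-cKO male paclitaxel replicate 3, Chrna7-cKO male vehicle replicate 1, Chrna7-cKO female paclitaxel replicates 2 and 3, Chrna7-cKO female vehicle replicates 1 and 3, WT male paclitaxel replicates 2 and 3, WT male vehicle replicate 1, WT female paclitaxel replicates 1 and 2, and WT female vehicle replicates 2 and 3. The log2 fold change itself ran from 0.80, without Chrna7-cKO male paclitaxel replicate 3, to 1.09.

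The male mean of Cst7 was above the female mean in both treatments. These are the cords that gave the call, so the parts are no separate support, and sex was not tested within a treatment. Among paclitaxel cords, 6 males averaged 0.575 ± 0.249 CPM and 5 females 0.258 ± 0.128 CPM. Among vehicle cords, 6 males averaged 0.543 ± 0.265 CPM and 6 females 0.321 ± 0.136 CPM. The 3 wild-type males given paclitaxel had 0.671, 0.758 and 0.780 CPM, and the 2 wild-type females given paclitaxel had 0.180 and 0.201 CPM. Those males lay above both females. Knockouts overlapped between the sexes: after paclitaxel, knockout males had 0.252, 0.263 and 0.727 CPM and knockout females 0.179, 0.247 and 0.480 CPM, and after vehicle, knockout males had 0.364, 0.409 and 0.519 CPM and knockout females 0.234, 0.401 and 0.498 CPM. Wild-type cords given vehicle did not overlap, at 0.430, 0.462 and 1.07 CPM in males and 0.160, 0.214 and 0.418 CPM in females. The nearest values, 0.430 and 0.418 CPM, were close. How many of all genes separate the sexes in groups this small was not counted, so nothing can be read from the separation in wild-types. Whether genotype changes the sex difference was not tested.

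The other members differed less between the sexes and were not called. In all, 9 of the 10 had a positive log2 fold change in males over females, with a median of 0.10, beside 0.00 over all tested genes. Itgax averaged 0.916 ± 0.494 CPM in males and 0.619 ± 0.378 CPM in females (log2 fold change 0.61, SE 0.27, edgeR adjusted p = 0.346). Axl averaged 77.4 ± 4.53 CPM in males and 72.5 ± 3.46 CPM in females (log2 fold change 0.10, SE 0.03, edgeR adjusted p = 0.122). With Cst7 these were the 3 members at an unadjusted p under 0.05, a level that 13.2% of all genes reached. Male and female values overlapped in the 10 genes. Of 15872 genes with a mean of at least 1 CPM, 0.107% had values that did not overlap. Cst7 and Itgax lay below that mean and were not among the 15872.

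Other lists of myeloid genes differed in direction. Of the 27 further genes of the disease-associated program, 23 had positive log2 fold changes in males, 6 of these with an unadjusted p under 0.05, and none was called. Of 13 homeostatic microglia markers, 4 were higher and 9 lower in males. Fcrls and Gpr34 were called. Fcrls, an Fc receptor-like gene of mouse microglia, averaged 6.33 ± 1.87 CPM in males and 10.9 ± 1.38 CPM in females with TMM scaling (log2 fold change -0.79, SE 0.14, edgeR adjusted p = 0.00992). Gpr34, a lysophosphatidylserine receptor, averaged 13.9 ± 1.93 CPM in males and 16.6 ± 1.56 CPM in females (log2 fold change -0.27, SE 0.05, edgeR adjusted p = 0.00830). All 9 border macrophage markers had negative log2 fold changes in males, 5 with an unadjusted p under 0.05, and none was called. Their summed level was 28.2 to 43.4 CPM in males and 32.3 to 44.1 CPM in females. The part of these cells in the difference in Cst7 was not tested.

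**Figure D3:**
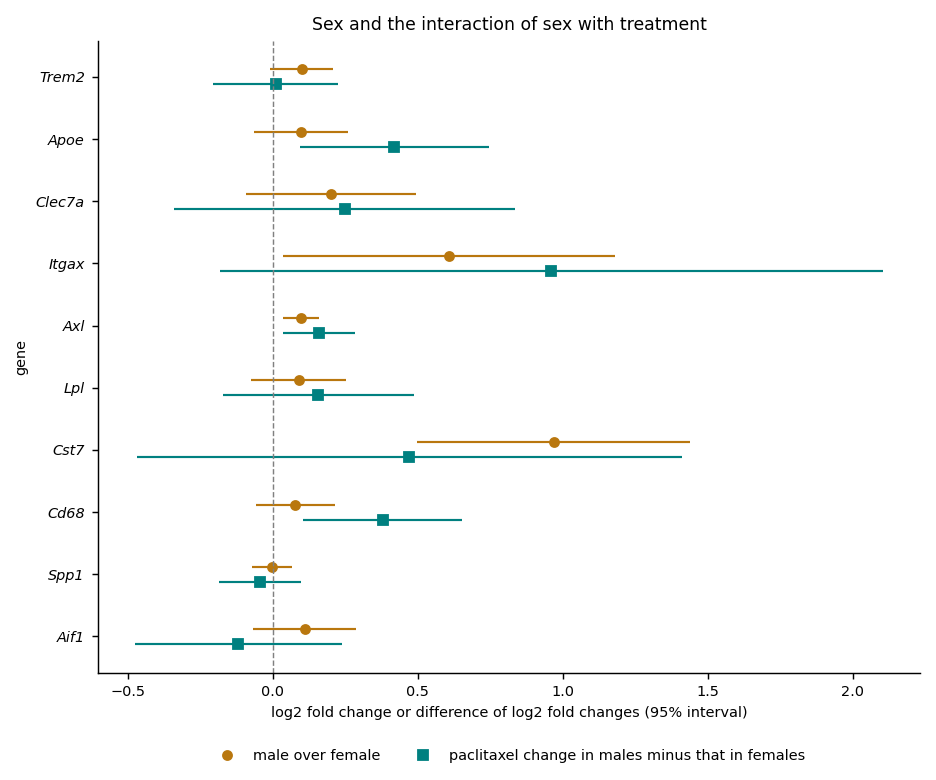
Log2 fold change of males over females (circles) and the difference of the paclitaxel responses, male minus female (squares) for each gene, with 95% intervals from the edgeR fit (x axis, log2). Cst7 lies at 0.97 in males over females, and the largest interaction, 0.96 in Itgax, has an interval that includes 0.

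The response to paclitaxel was compared between the sexes as an interaction, the male response minus the female response. The library numbers in the labels divide along the same line: numbers 1 to 12 are the males given paclitaxel and the females given vehicle, and numbers 13 to 24 are the females given paclitaxel and the males given vehicle. This interaction is therefore also the difference between these 2 sets of library numbers. The order of the libraries and the interaction cannot be told apart, and no value within 1 set separates them. No member was called, while 4.96% of all genes were. At an unadjusted p under 0.05 there were 3 members, Apoe, Cd68 and Axl, and 20.3% of all genes reached that level. Cd68 averaged 6.11 ± 0.564 CPM in males given paclitaxel and 5.76 ± 0.953 CPM in males given vehicle (SD, n = 6 each). Its female means were 5.12 ± 0.704 CPM after paclitaxel (n = 5) and 6.14 ± 0.354 CPM after vehicle (n = 6). The log2 interaction was 0.38 (SE 0.13, edgeR adjusted p = 0.0923), and DESeq2 called this gene.

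Apoe averaged 1186 ± 208 CPM in males given paclitaxel and 972 ± 117 CPM in males given vehicle. Female means ran the other way, at 963 ± 77.3 CPM after paclitaxel and 1044 ± 158 CPM after vehicle. The interaction was 0.42 (SE 0.15, edgeR adjusted p = 0.125). Axl averaged 78.5 ± 4.15 CPM in males given paclitaxel and 76.3 ± 5.01 CPM in males given vehicle, and 69.9 ± 1.45 CPM in females given paclitaxel and 74.7 ± 3.15 CPM in females given vehicle (interaction 0.16, SE 0.06, edgeR adjusted p = 0.122). Of the homeostatic markers, Selplg, Csf1r and Cx3cr1 were called in this contrast, at 0.34, 0.43 and 0.28 on the log2 scale. Csf1r, the receptor microglia need to survive, averaged 66.2 ± 4.94 CPM in males given paclitaxel and 56.4 ± 10.4 CPM in males given vehicle, against 55.0 ± 6.35 CPM in females given paclitaxel and 60.8 ± 3.53 CPM in females given vehicle. Among the 27 further disease-associated genes Cd9, a tetraspanin, and the cathepsins Ctsz and Ctsb were called, at 0.31, 0.29 and 0.24. So was Cx3cl1, the ligand of CX3CR1 (0.32), among the nerve injury genes. Calls were not limited to microglial lists: the astrocyte marker Aldh1l1 (0.39), the endothelial marker Tek (0.59), the oligodendrocyte markers Cnp (0.34) and Mag (0.28) and the muscle actin Acta1 (3.31) were called as well. The wild-type female paclitaxel group has 2 cords in this fit. With all 24 libraries 0 genes were called in this interaction, and with 1 of the 23 cords left out the count over all genes ran from 248, without WT female paclitaxel replicate 1, to 2419, without Chrna7-cKO male vehicle replicate 1.

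No gene of the wider pathway was called after paclitaxel over all animals. Of 27 further genes of the disease-associated program, 11 had positive and 16 negative log2 fold changes over all animals, and none was called. Their smallest unadjusted p belonged to Hif1a, a hypoxia factor (log2 fold change -0.06, SE 0.03). It was followed by Tyrobp, the TREM2 adaptor, at -0.09 (SE 0.05), and Ccl3, a chemokine, at 0.28 (SE 0.16). Among 17 binding partners and downstream genes of the members 16 were tested and none was called. Ctsf, a cathepsin, had a log2 fold change of 0.06 (SE 0.03). Of 14 genes tied to microglia after nerve injury none was called. Bdnf, the neurotrophin, had -0.12 (SE 0.06), P2ry6, a UDP receptor, 0.18 (SE 0.09) and Tlr4, the endotoxin receptor, -0.20 (SE 0.10).

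Homeostatic genes, which activation lowers, were not called after paclitaxel either. Over all animals 4 of the 13 were positive and 9 negative, with a median of -0.03 and the smallest unadjusted p in Gpr34 (log2 fold change -0.16, SE 0.05, edgeR adjusted p = 0.260). In wild-types 13 of 13 were negative with a median of -0.14 and 3 at an unadjusted p under 0.05, and in knockouts 9 were positive. The interaction of genotype and treatment was positive in 12 of the 13, with a median of 0.21, 6 at an unadjusted p under 0.05 and none called. Some other lists showed similar directions and some did not. In wild-types 6 of 6 oligodendrocyte markers (median -0.11, 3 at an unadjusted p under 0.05), 9 of 10 astrocyte markers and 5 of 5 Schwann cell markers were negative, and the interaction was positive in 5 of the 6, 8 of the 10 and 3 of the 5. Motor neuron markers were positive in 4 of 7 (median 0.07) and neutrophil markers in 6 of 6 (median 1.34) in wild-types. Their interaction was positive in 4 of the 7 and 1 of the 6. P2ry12, the ADP receptor of surveying microglia, averaged 32.2 ± 2.64 CPM in paclitaxel cords and 34.0 ± 2.97 CPM in vehicle cords with TMM scaling. Cell division genes, which would follow multiplying cells, had 5 of 8 positive and none called, and Top2a averaged 0.751 ± 0.265 CPM in paclitaxel cords and 0.966 ± 0.667 CPM in vehicle cords.

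Markers of blood neutrophils had larger log2 fold changes, also without a call. All 6 had positive log2 fold changes with a median of 1.12, and all 6 had an unadjusted p under 0.05. Their summed level was 3.69 to 59.0 CPM in paclitaxel cords (median 15.2) and 2.28 to 19.3 CPM in vehicle cords (median 9.31). Retnlg, a resistin-like protein of neutrophils, had 1.25 (SE 0.43, edgeR adjusted p = 0.337). All 7 endothelial markers were positive too, with a median of 0.16, 2 at an unadjusted p under 0.05 and none called. In knockouts all 7 were positive with a median of 0.35, all 7 at an unadjusted p under 0.05, while in wild-types 6 of the 7 were negative with a median of -0.08. Their interaction of genotype and treatment was positive in 7 of 7 (median 0.41), 4 at an unadjusted p under 0.05, and none was called. Over all animals their summed level was 171 to 298 CPM in paclitaxel cords and 117.0 to 219 CPM in vehicle cords. The part of blood and vessel cells in the members' values was not tested.

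A few cords led several members at once. WT male vehicle replicate 1, an animal given no drug, had the highest value of all 23 cords in 5 members (Trem2, Axl, Cst7, Cd68 and Aif1) and the lowest in Spp1. Its Trem2 level was 19.1 CPM, its Cd68 level 7.06 CPM and its Aif1 level 9.67 CPM. Chrna7-cKO female vehicle replicate 2 had the highest Clec7a, at 5.83 CPM, and the highest Itgax, at 1.69 CPM. Among treated animals, Chrna7-cKO male paclitaxel replicate 3 was among the 3 highest cords in 7 members and had the highest Lpl, at 13.3 CPM. WT male paclitaxel replicate 2 had the highest Apoe and Spp1, at 1595 and 193 CPM. These 4 cords, 2 given paclitaxel and 2 given vehicle, held the highest values of all 10 members. WT male vehicle replicate 1 also had the highest sums of the 23 cords for homeostatic microglia markers (417 CPM) and cell division genes (12.5 CPM). The homeostatic sum was 404 CPM in Chrna7-cKO male paclitaxel replicate 3, 378 CPM in Chrna7-cKO female vehicle replicate 2 and 353 CPM in WT male paclitaxel replicate 2.

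**Figure D4:**
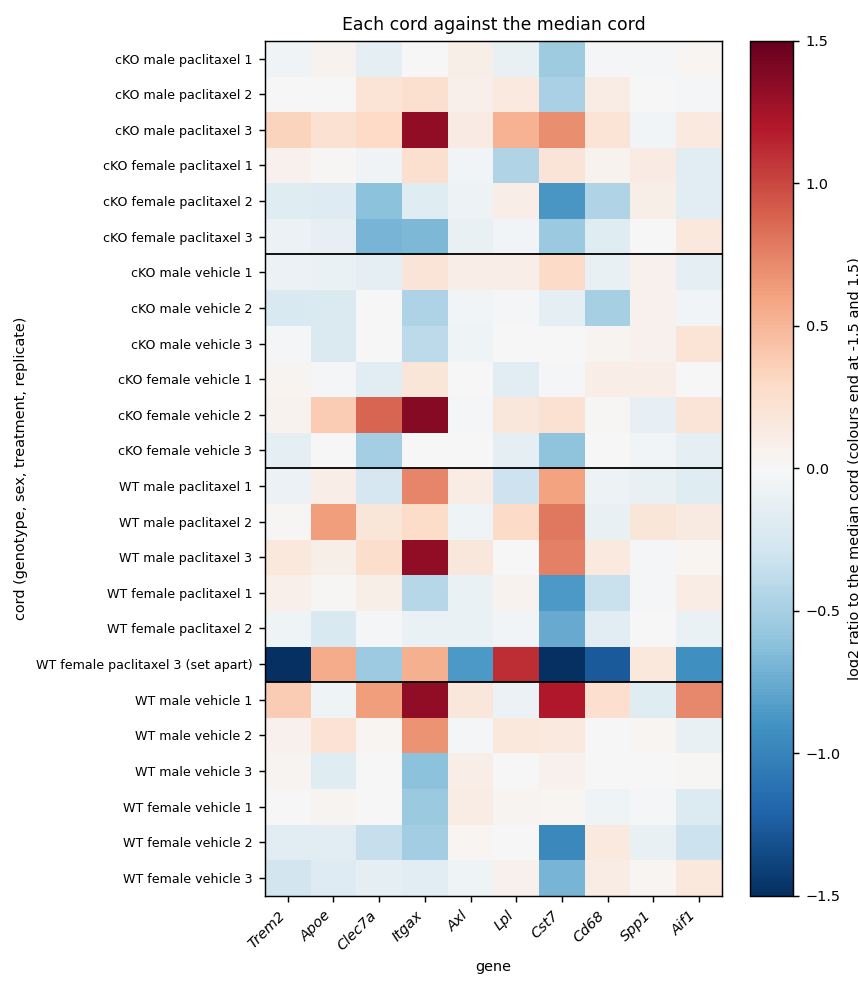
Log2 ratio of each gene (columns) to its median over the 23 cords, in log2(CPM + 0.1), for every library (rows, by genotype, treatment and sex); red is higher and blue lower. Red rows appear in paclitaxel and in vehicle groups, and WT female paclitaxel replicate 3, set apart, is blue in Trem2, Cst7, Cd68, Axl and Aif1 and red in Lpl.

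Part of the group varied together between animals, and all 6 pairs of Trem2, Clec7a, Itgax and Cst7 were among those that passed. Of the 45 pairs of members, 17 correlated over the 23 cords at an adjusted p under 0.05 (permutation test of Pearson's r, 100000 resamples, two-sided, Benjamini-Hochberg over the 45 pairs), 16 of them positively, and 12 pairs passed by Spearman's rho. The strongest was Cst7 with Itgax, at r = 0.71 (permutation p = 0.00017, adjusted p = 0.00472) and rho = 0.70 (permutation p = 0.0003, adjusted p = 0.00675). Without the 2 cords farthest from the median of Cst7 its r was 0.63. Trem2 correlated with Cst7 at r = 0.69 (permutation p = 0.00021, adjusted p = 0.00472; rho = 0.60, permutation p = 0.0031, adjusted p = 0.0255), and at r = 0.56 without the 2 farthest cords. For Clec7a with Trem2 the values were r = 0.66 (permutation p = 0.00067, adjusted p = 0.00603) and rho = 0.74 (permutation p = 9e-05, adjusted p = 0.00405), and r = 0.78 without the 2 farthest cords. Levels in CPM share the library total of a cord, so these points are not free of one another.

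The 1 negative pair that passed was Spp1 with Axl, at r = -0.49 (permutation p = 0.016, adjusted p = 0.0427) and rho = -0.53 (permutation p = 0.01, adjusted p = 0.0392), and r = -0.34 without the 2 farthest cords. Lpl was in no pair that passed. With values centred on the means of the 8 groups 7 pairs passed. Centred values of a group are tied to each other but were permuted freely, so that count may be too high. With values as they are the count was 7 without Chrna7-cKO male paclitaxel replicate 3 and 7 without WT male vehicle replicate 1. It was 8 without Chrna7-cKO female paclitaxel replicate 2 and 11 without WT male paclitaxel replicate 3.

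**Figure D5:**
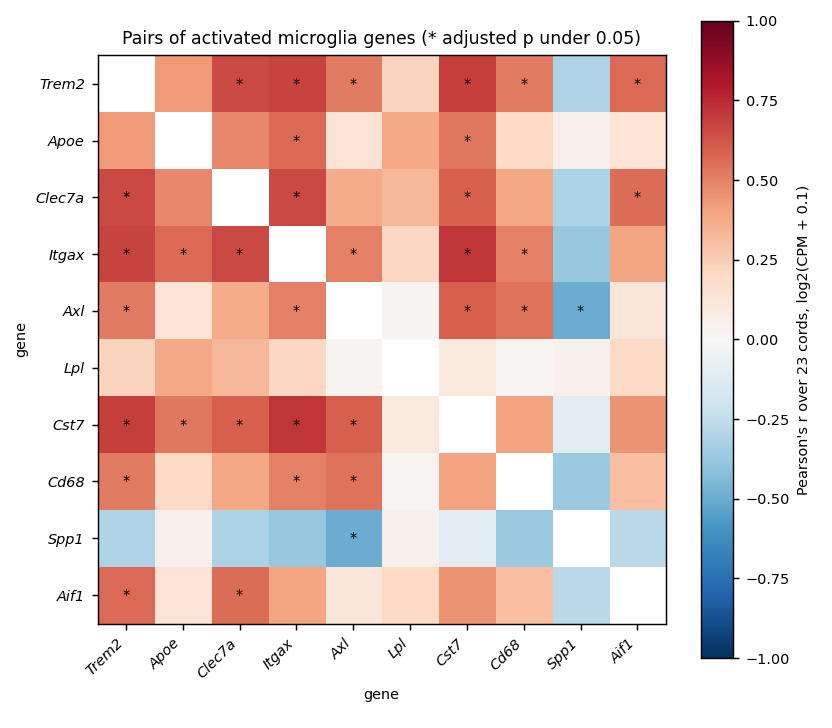
Pearson's r between the levels of 2 genes over 23 cords, in log2(CPM + 0.1), for each pair (rows and columns are genes, colour is r from -1 to 1, stars mark adjusted p under 0.05). All pairs of Trem2, Clec7a, Itgax and Cst7 are starred and positive. Axl, Cd68, Apoe and Aif1 are each starred with some of these genes, and Spp1 with Axl is the starred negative pair.

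Against the summed level of other markers, 0 of 40 relations between the 10 members and 4 lists passed (homeostatic microglia, border macrophages, astrocytes and motor neurons, adjusted over the 40). By Spearman's rho the count was also 0. Cd68 came nearest with the homeostatic sum, at r = 0.61 (permutation p = 0.002, adjusted p = 0.0636; rho = 0.55, permutation p = 0.0072, adjusted p = 0.287), and r = 0.58 without the 2 farthest cords. Centring on the group means gave 3 relations that passed, a count that may be too high for the reason given for the pairs. The highest centred values were all with the homeostatic sum, at r = 0.79 for Cst7, 0.74 for Trem2 and 0.67 for Itgax. Without centring these were 0.36, 0.59 and 0.54.

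The genes most like each member were sought by Pearson's r of log2(CPM + 0.1), centred on the means of the 8 groups, over 23 cords. The search covered 15872 genes with a mean of at least 1 CPM. Cst7 and Itgax lay below that mean, so they could not be found as neighbours of other members. For Cst7 they were Trem2 (r = 0.88), C1qb (0.87) and Itgam (0.86). Trem2 thus had its 0.88 with Cst7, and among the genes searched its nearest were C1qb (0.85), Cd86 (0.84) and C1qc (0.82). C1qb and C1qc encode chains of complement C1q, and Itgam the integrin chain CD11b. Clec7a was most like Lgals3 (0.89), Lyz2 (0.84) and Spi1 (0.82), the last being the gene of PU.1. Itgax was most like Vav1 (0.85), Trim25 (0.85) and Ifngr1 (0.84), and Aif1 like Ppp2r3c (0.86), B2m (0.78) and Cd53 (0.77). The nearest genes of the other 5 were B3galt6 for Apoe (0.98), Tpst1 for Lpl (0.88), Zfp688 for Spp1 (0.83), Zfp457 for Cd68 (0.80) and Trp53i11 for Axl (0.85). These values were picked as the highest among all genes searched and carry no test.

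In WT female paclitaxel replicate 3, the library with ganglion transcripts, the members split. Trem2 was at 2.33 CPM, Cst7 at 0.0633, Cd68 at 2.41, Axl at 40.6 and Aif1 at 3.05 CPM, below every one of the 23 cords. Lpl was above them all at 19.9 CPM, and Apoe (1523 CPM), Spp1 (190.0 CPM), Itgax (0.907 CPM) and Clec7a (2.12 CPM) lay inside their range. With this library in the fit the number of members called for paclitaxel over all animals was still 0, and Trem2 had a log2 fold change of -0.08 in place of 0.04.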

How the data were processed

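Total RNA of 24 mouse spinal cords was sequenced on an Illumina instrument, per the labels' protocols. The authors deposited 1 table of whole-number counts per gene without normalization. The submitters' processing notes name STAR as the aligner, with its version not given in the sources used here; featureCounts 1.6.2 was the counter. Counting used exons of Ensembl GRCm38 release 96, summed by gene name without regard to strand and no read pair option was set, per the file headers, so both mates may be counted and antisense partners cannot be told apart. Reads overlapping several genes were not assigned.

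A model of the counts of 23 cords was made with edgeR 4.0.16 under R 4.3.3 (filterByExpr over the 8 groups, TMM factors, robust quasi-likelihood, means of the 8 groups), and 9 contrasts were tested. WT female paclitaxel replicate 3 was left out of the fit. The adjusted p is Benjamini-Hochberg over all 25372 tested genes and was called under 0.05. CPM of single libraries and group means use library totals, except where TMM scaling is named, and folds are fitted. Log values use a pseudocount of 0.1 CPM. DESeq2 1.42.0 and limma 3.58.1 (voom) served as alternatives, and the fit was tested on simulated data. Deviations from group means had a median correlation of 0.03 over 77 pairs of samples with the same replicate number, 27 over 0.1. Over 154 pairs with different numbers the median was -0.02, 28 over 0.1. Sharing was weak, but greater with the same number. The main fit did not use the numbers to pair animals, and a fit with them as a block is given below. Libraries of a group differed by more than sampling noise. The members and the 14 lists beside them were chosen with earlier results of these data known. Named genes come from the members, those of each list that were called (up to 4) or, with none called, up to 3 with the smallest p after paclitaxel, and the 3 genes most like each member; only part of them is printed. The values of 1 partner gene are not reported here. P2ry12, Top2a and the genes of sums were named after their values were seen. Intervals cover 95% and the counts limit the precision of rare genes. Promoters came from RefSeq GRCm38.p6.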

Additional observations from a re-analysis of the deposited data

Results flagged for a closer look

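Single cords far from the rest of their group were looked for in each member and in each of the 4 combinations of genotype and treatment, 40 groups in all, with Dixon's test of the gap at either end. In 7 groups a cord stood far out, and all 7 were high values. Chance marks about 1 in 20 groups where values are normally distributed and groups independent. Here the test used CPM without a log, the groups pooled the sexes and several members varied together. No excess over chance can therefore be read from the 7 groups. WT male vehicle replicate 1 had 1.07 CPM of Cst7 (0.160 to 0.462 CPM in the other 5 cords of its group), 4.90 CPM of Clec7a (2.46 to 3.23 CPM) and 9.67 CPM of Aif1 (4.66 to 6.51 CPM). Chrna7-cKO female vehicle replicate 2 had 1341 CPM of Apoe (885 to 1032 CPM in the others), 1.69 CPM of Itgax (0.406 to 0.700 CPM) and 5.83 CPM of Clec7a (2.17 to 3.17 CPM). Chrna7-cKO male paclitaxel replicate 3 had 1.65 CPM of Itgax (0.337 to 0.726 CPM). So 6 of the 7 values came from the same vehicle cords, WT male vehicle replicate 1 and Chrna7-cKO female vehicle replicate 2, and are not separate animals.

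In the library set apart, WT female paclitaxel replicate 3, 3 members lay above all 12 vehicle cords. Apoe was at 1523 CPM (885 to 1341 CPM in vehicle cords), Lpl at 19.9 CPM (8.21 to 10.4 CPM) and Spp1 at 190.0 CPM (149 to 182 CPM).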

How the results depend on the processing

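The count of called members was 0 for paclitaxel, genotype and their interaction in each alternative run. In males against females it was 0 with all 24 libraries, 0 with limma voom, 2 without the filter on low counts and 0 to 1 with a cord left out. In the interaction of sex and treatment it was 2 without the filter, 1 with DESeq2 and 0 to 1 with a cord left out. Correlated pairs numbered 7 with values centred on group means and 7 to 18 with a cord left out. Relations with marker sums numbered 3 centred, 8 with all 24 libraries and 0 to 3 with a cord left out. Both centred counts may be too high, as said above. Small log2 fold changes turned sign: for paclitaxel Trem2 was -0.0789 with all 24 libraries and Lpl -0.00244 with voom, and for males over females Lpl was -0.0415 with all 24 libraries and Spp1 1.51e-05 with library totals alone. With a cord left out, the paclitaxel values ran from -0.0887 to 0.0306 (Aif1), -0.177 to 0.0191 (Clec7a), -0.0506 to 0.253 (Itgax), -0.0397 to 0.0491 (Lpl) and -0.00295 to 0.0388 (Spp1), and Spp1 in males over females from -0.0277 to 0.0140. The cause was not tested.

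With the replicate block, Cst7 in males over females was 0.99 (adjusted p = 0.0255), and no count of called members changed. Samples with the same replicate number also have neighbouring library numbers, within numbers 1 to 12 and within 13 to 24. The part of library order in the block was not tested. Over all genes, 5 were called for paclitaxel in all animals, against 9 with the block, 3 with library totals alone, 338 without the filter, 158 with DESeq2, 0 with all 24 libraries and 2 to 62 with a cord left out. For males over females 233 were called, against 749 without the filter, 583 with DESeq2, 28 with all 24 libraries and 65 to 324 with a cord left out. For the interaction of sex and treatment 1259 were called, against 1891 with the block, 2181, 2376, 0 and 248 to 2419. Within knockouts 6 were called for paclitaxel, against 470, 126, 0 and 0 to 332. Rare genes such as Itgax and Cst7 limit what depth can show.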
